A study of Mus musculus with 10 samples.

Results

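Pseudogenes are copies of genes that have lost the ability to make the protein of the gene they came from. Processed pseudogenes arose when a messenger RNA was copied back into DNA and inserted elsewhere in the genome, so they lack the introns of their parent and are commonest for genes with abundant messenger RNA, such as those of ribosomal proteins and glycolytic enzymes. Unprocessed pseudogenes arose by duplication and may keep introns, and some nuclear pseudogenes are pieces of the mitochondrial genome. Because a pseudogene can be nearly identical to its parent, a sequencing read from one may also match the other, and the level assigned to either depends on the few bases at which they differ.

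The 129 pseudogenes described here were those typed as pseudogene in the deposited gene table whose raw counts summed to at least 500 over the 10 libraries, out of 7373 genes of that type and 35275 genes in all. The study compared C2C12 cells, an established line of mouse myoblasts, by RNA-seq. One condition was day 6 of myogenic differentiation in medium with horse serum (5 libraries), set against the same line in growth medium before differentiation (5 libraries). Neither condition carried an added allele or agent, and all libraries came from 1 cell line. No source used here states that the replicates were separate cultures. The p-values then rest on the spread between libraries alone, and that spread may be technical.

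Library totals were 15367909 to 20509280 counts on day 6 and 16288532 to 21622527 counts before differentiation. All 9 muscle markers found in the table averaged at least 1 CPM (counts scaled to a common library total, with TMM factors) on day 6 and 8 of 9 did so before differentiation. Of 15 markers of other cell types, 2 reached that level on day 6 and 1 before differentiation, and their summed level was 4.09 to 5.39 CPM on day 6 against 0.948 to 3.61 CPM before. The epithelial marker Cdh1 averaged 3.3 CPM on day 6 and 0.184 CPM before, and the macrophage marker Cd68 1.2 and 1.87 CPM. Within day 6, the first principal component over all genes tested placed libraries 1 and 2 on one side and libraries 3, 4 and 5 on the other. The part of that separation in the results was not tested. Counts of changed pseudogenes without those libraries are given beside the main counts.

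A parent gene was assigned to 39 of the 129 pseudogenes from their names, for 27 by the symbol itself (Rpl3-ps1 gives Rpl3) and for 12 by a synonym in the reference gene table. A further 70, mostly with provisional Gm symbols, were paired with the coding transcript nearest in sequence, at no less than 95% identity over no less than 80% of the pseudogene. The search covered coding transcripts whose coding region spans an intron, those of mitochondrial genes and those of the named parents. Other coding transcripts without an intron in the coding region were left out. Within that set the nearest coding gene was also the named parent in all 39 cases where both could be had. Because the named parents had been put into the set, this is not an independent check. The 109 pairs had a median identity of 99.44%, and 19 pseudogenes were identical to their partner over their whole length. No partner was assigned to 20 pseudogenes. GENCODE M21, an annotation of the mm10 genome (GRCm38), types 89 of the 129 as processed pseudogenes and a further 10, Rps2-ps10 among them, as transcribed processed pseudogenes.

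The closeness of the copies can be read from stretches of 90 bases taken from the M21 transcripts, each lying inside the coding region of the partner, without gaps, with every base that differs in capitals. They are shown for pairs whose values are described below, placed where the members of a pair differ most, and for Rpl10a-ps1, whose whole transcript is identical to part of its parent. The Gm13394 stretch lies at chr2:28934220-28934309 on the minus strand, and the Gapdh stretch, in 2 exons, at chr6:125162972-125163159 on the minus strand.
Gm13394: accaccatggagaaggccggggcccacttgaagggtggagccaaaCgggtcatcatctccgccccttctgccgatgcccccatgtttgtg
Gapdh: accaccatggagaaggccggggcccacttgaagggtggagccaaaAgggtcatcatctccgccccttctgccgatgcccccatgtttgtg
The Gm15772 stretch lies at chr5:3236562-3236651 on the plus strand, and that of Rpl26, in 2 exons, at chr11:68902406-68903231 on the plus strand.
Gm15772: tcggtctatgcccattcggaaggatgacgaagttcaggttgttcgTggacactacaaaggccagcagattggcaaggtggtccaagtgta
Rpl26: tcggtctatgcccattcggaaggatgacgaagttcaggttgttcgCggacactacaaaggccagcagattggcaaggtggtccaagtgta
The Gm2830 stretch lies at chr13:54499789-54499878 on the minus strand, and that of Rps24, in 2 exons, at chr14:24492064-24493419 on the plus strand.
Gm2830: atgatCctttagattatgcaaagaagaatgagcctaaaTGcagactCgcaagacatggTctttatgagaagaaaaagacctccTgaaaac
Rps24: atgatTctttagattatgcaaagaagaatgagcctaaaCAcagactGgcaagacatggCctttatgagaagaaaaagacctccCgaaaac
The Gm6863 stretch lies at chr12:96922466-96922555 on the minus strand, and that of Naca, in 1 exon, at chr10:128048247-128048336 on the plus strand.
Gm6863: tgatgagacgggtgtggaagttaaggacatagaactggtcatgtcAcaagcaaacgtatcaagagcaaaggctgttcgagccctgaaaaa
Naca: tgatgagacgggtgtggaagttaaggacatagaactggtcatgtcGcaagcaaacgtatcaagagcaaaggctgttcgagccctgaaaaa
The RP23-8J15.5 stretch lies at chr1:24613030-24613119 on the minus strand, and its mitochondrial partner mt-Nd3 runs along the plus strand from base 9459 to 9548 of the mitochondrial genome.
RP23-8J15.5: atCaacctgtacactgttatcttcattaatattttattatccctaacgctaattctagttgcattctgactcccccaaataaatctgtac
mt-Nd3: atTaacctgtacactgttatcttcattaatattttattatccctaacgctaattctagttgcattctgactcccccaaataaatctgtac
The Rpl10a-ps1 stretch, from the start of its transcript, lies at chr1:64994515-64994604 on the minus strand, and reads the same as the start of the Rpl10a coding region.
Rpl10a-ps1: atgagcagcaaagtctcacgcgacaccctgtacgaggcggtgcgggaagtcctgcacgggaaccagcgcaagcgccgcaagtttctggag

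Over 90 bases, Gm13394, Gm15772, Gm6863 and RP23-8J15.5 each differed from their partner by 1 base and Gm2830 by 6 bases. When each pseudogene was cut into all its overlapping windows of 100 bases, a median of 60.6% of the windows occurred unchanged in a transcript of the partner (107 pairs long enough for a window). All windows were shared in 17 pairs and none in 5 pairs, among them Gm2830 with Rps24 and Gm10557 with Cdh11.

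The counts at these pseudogenes made up 0.257% ± 0.00583 of a library on day 6 and 0.379% ± 0.00663 before differentiation (SD, n = 5 each). The libraries ranged from 0.251% to 0.264% on day 6 and from 0.373% to 0.387% before differentiation, and did not overlap. These are shares of the counts by which the pseudogenes were chosen and carry no test. The 5 most abundant pseudogenes held 47.2% of the pooled counts of the 129. In bulk RNA, fewer cells that make a transcript and less of it per cell cannot be told apart.

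**Figure D1:**
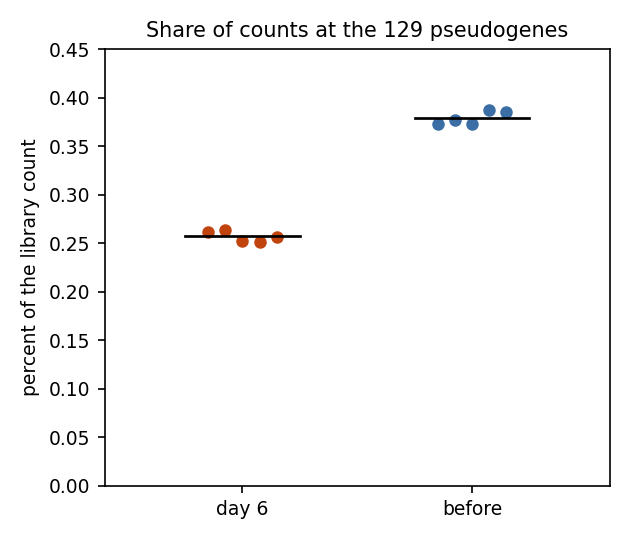
Percent of each library's count that fell on the 129 pseudogenes, for 5 libraries on day 6 (left) and 5 before differentiation (right). Points are libraries and bars are means: 0.257% on day 6 and 0.379% before differentiation.

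By edgeR's quasi-likelihood test with Benjamini-Hochberg adjustment over all 13085 genes tested, 27 of the 129 pseudogenes were higher on day 6, 74 were lower and 28 did not pass an adjusted p of 0.05. Over all genes tested, 79.8% passed, 40.1% as higher and 39.7% as lower, so the pseudogenes were called in 1 direction more often than the other (20.9% higher, 57.4% lower) while all genes were called about evenly. The median log2 fold change, day 6 over before, was -0.50 for the pseudogenes and 0.01 for all genes tested. The CPM values of 85 of the 129 did not overlap between the conditions, against 69.1% of all genes tested. Of the pseudogenes below the count minimum, 175 could be tested, with 18 higher, 82 lower and a median of -0.59. Without day 6 libraries 1 and 2 there were 27 higher and 73 lower pseudogenes, and without libraries 2 and 3 of the cells before differentiation 24 higher and 70 lower. All 129 passed the filter on low counts, and 111 of them had at least 250 counts in each condition taken alone. On day 6 alone 114 had at least 250 counts, and before differentiation alone 126 did. They were chosen by counts summed over both conditions, not by direction, but a pseudogene could enter through 1 condition alone.

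**Figure D2:**
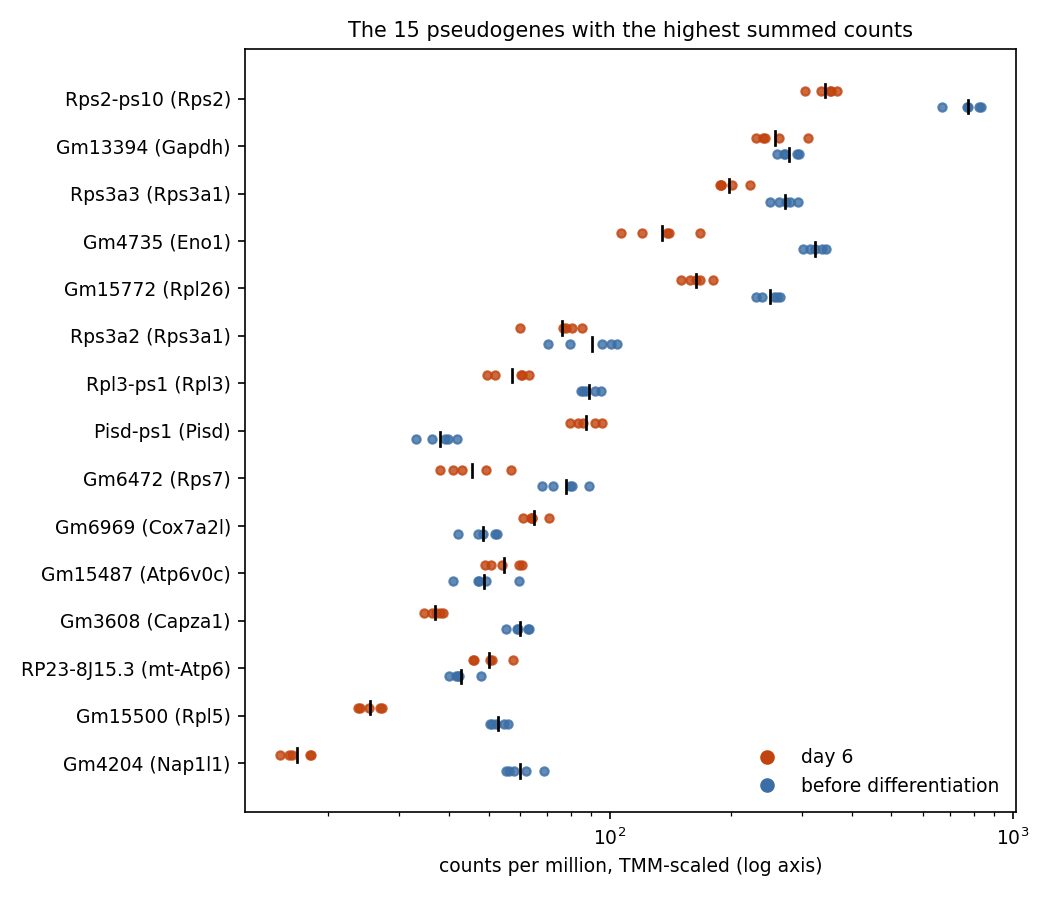
CPM of the 15 pseudogenes with the highest summed counts in each library, on a log axis, with the partner gene in brackets. For each gene the upper points are the 5 libraries of day 6 and the lower points the 5 libraries before differentiation, with a bar at the mean. Rps2-ps10 had the highest level, 342 CPM on day 6 and 775 CPM before differentiation, and Pisd-ps1 was among the few that were higher on day 6.

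Rps2-ps10, a copy of the gene of the small-subunit ribosomal protein Rps2, had the most counts of all. It measured 304, 367, 354, 352 and 335 CPM on day 6, against 669, 771, 827, 833 and 776 CPM before differentiation. Every library of day 6 was below every library before differentiation, and the log2 fold change was -1.18 ± 0.064 (SE; edgeR adjusted p = 7.59e-12). Its parent Rps2 had 266 ± 11.7 CPM on day 6 and 650 ± 44.96 CPM before (SD, n = 5 each), a log2 fold change of -1.29 (adjusted p = 1.75e-13), so that on the deposited length-corrected scale (FPKM) the pseudogene stood at 146% of its parent on day 6 and 135% before differentiation. A second, rarer copy, Rps2-ps13, averaged 2.92 ± 0.565 CPM on day 6 and 6.77 ± 1.75 CPM before, a log2 fold change of -1.21.

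Pseudogenes of ribosomal protein genes formed the largest group with a common role. Of 32 such pseudogenes, 27 fell, 1 rose and 4 did not pass, with a median log2 fold change of -0.67. Of the cytosolic ribosomal protein genes themselves, 82 of 82 tested fell, with a median of -0.83. In 27 of the 32 pairs both members fell, in 1 they were called in opposite directions, and in 4 only 1 of them was called. Since all the genes tested fell, these counts only restate how many of the pseudogenes fell. Rps3a3, 98.87% identical to the small-subunit gene Rps3a1, had 223, 201, 189, 187 and 189 CPM on day 6, against 293, 281, 249, 262 and 274 CPM before. It fell by 0.46 on the log2 scale and Rps3a1 by 0.49, and its FPKM was 208% of that of Rps3a1 on day 6 and 204% before differentiation. Rps3a2, a second copy of the same gene, had 59.8 to 85.5 CPM on day 6 and 70.3 to 104 CPM before, ranges that overlapped, and did not pass the test (log2 fold change -0.25, adjusted p = 0.0801). Rpl3-ps1 fell to 57.0 ± 5.98 CPM on day 6, against 89.0 ± 4.29 CPM before (log2 fold change -0.64, adjusted p = 7.45e-08), and Gm6472, a copy of Rps7, to 45.5 ± 7.53 CPM, against 77.8 ± 8.13 CPM (log2 fold change -0.77, adjusted p = 9.55e-06). Rps3a3 lies inside Pde4d on the same strand, and Pde4d was higher on day 6 (log2 fold change 0.44).

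Gm15500, a copy of the large-subunit gene Rpl5, had 27.2, 23.9, 26.9, 25.2 and 23.7 CPM on day 6, against 54.8, 51.0, 50.5, 52.1 and 55.9 CPM before differentiation. Its log2 fold change of -1.06 ± 0.0631 was larger than that of Rpl5 (-0.68 ± 0.0452), and the ratio of the copies differed by -0.37 on the log2 scale between the conditions without overlap between libraries (exact two-sided permutation test over 10 libraries, p = 0.00794). That value is the smallest that splits of 5 against 5 libraries allow, it is not adjusted, and the same ratio was computed for all 109 pairs.

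In Gm15772, a copy of the large-subunit gene Rpl26, the pseudogene carried nearly all counts. It measured 181, 164, 158, 167 and 150 CPM on day 6, against 265, 260, 239, 231 and 256 CPM before, whereas Rpl26 itself measured 9.10, 10.9, 10.4, 7.33 and 7.55 CPM on day 6, against 23.6, 18.5, 21.7, 20.6 and 23.2 CPM before. The FPKM of the pseudogene was thus 2716% of that of Rpl26 on day 6 and 1744% before differentiation. Both fell, Gm15772 by 0.61 and Rpl26 by 1.24 on the log2 scale, and their ratio was 0.61 higher on day 6 without overlap (exact permutation p = 0.00794). Among ribosomal pairs 3 of 32 had a pseudogene with higher FPKM than the partner in both conditions, and 20 had a pseudogene under 10% of it, with medians of 5.06% on day 6 and 4.95% before.

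Gm2830 was the 1 ribosomal pseudogene that rose. It had 19.6, 13.1, 9.87, 10.9 and 9.68 CPM on day 6, against 4.66, 4.15, 2.74, 3.02 and 5.63 CPM before differentiation, with library 1 the highest of day 6 and no overlap between the conditions. The log2 fold change was 1.66 ± 0.236 (adjusted p = 1.92e-05). Its nearest coding gene, Rps24, which encodes a small-subunit protein, fell to 392 ± 23.4 CPM on day 6, against 714 ± 48.3 CPM before (log2 fold change -0.86, adjusted p = 9.43e-11). Gm2830 is 96.10% identical to Rps24, without any shared window of 100 bases. The log2 ratio of Gm2830 to Rps24 was -4.95 ± 0.349 on day 6 and -7.33 ± 0.335 before (SD, n = 5 each).

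Pseudogenes with a partner on a list of 16 genes for chromatin and nucleolar proteins of dividing cells had the lowest median log2 fold change of the groups compared, -2.17: 6 of 7 fell and 0 rose. All 16 genes of the list fell, with a median of -1.82. Gm4204, a copy of the histone chaperone gene Nap1l1, had 18.0, 15.2, 16.0, 18.1 and 16.3 CPM on day 6, against 62.0, 57.9, 55.2, 56.1 and 68.7 CPM before differentiation (log2 fold change -1.84, adjusted p = 1.82e-13; Nap1l1 -1.66). Gm14681, a copy of the nucleophosmin gene Npm1, averaged 6.91 ± 1.32 CPM on day 6 and 32.5 ± 2.45 CPM before (log2 fold change -2.22; Npm1 -2.26). Both copies of the prothymosin alpha gene Ptma fell, Gm9800 by 2.56 and Gm4617 by 2.79, where Ptma fell by 2.61, all on the log2 scale. Gm15387, a copy of the chromatin protein gene Hmgb1, had 2.01 to 2.24 CPM on day 6 and 7.65 to 11.1 CPM before (log2 fold change -2.17; Hmgb1 -1.72). The exception, Gm10182, identical to part of the gene of the nucleosome-binding protein Hmgn2, had a log2 fold change of -0.21 and did not pass, while Hmgn2 fell by 0.68.

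**Figure D3:**
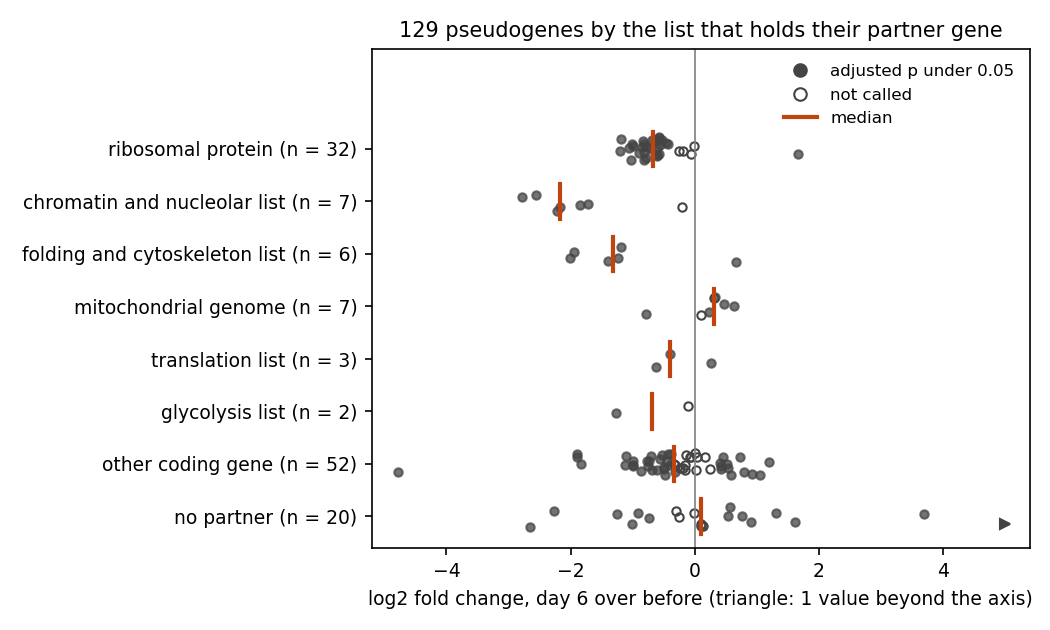
Log2 fold change, day 6 over before, of each of the 129 pseudogenes, grouped by the gene list that holds the partner. Filled points passed an adjusted p of 0.05, open points did not, and bars are medians. The medians were -2.17 for chromatin and nucleolar partners, -1.31 for folding and cytoskeleton, -0.67 for ribosomal proteins and 0.31 for the mitochondrial genome, and a triangle marks RP23-458B6.6, which had no count before differentiation.

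Of 6 pseudogenes with a partner on a list of 15 folding and cytoskeleton genes, 5 fell and 1 rose, and of the 15 genes themselves 14 fell and 1 rose. The list does not hold every such gene: copies of Hsp90aa1 (Gm12346), Ptges3 (Gm9769), Ppih (Gm7879), Capza1 (Gm3608) and Actr3 (Gm8822) stand outside it, and all 5 fell, by 1.89, 1.11, 1.83, 0.70 and 0.69 on the log2 scale. Gm12715, a copy of the gamma-actin gene Actg1, had 5.34, 6.46, 6.46, 7.26 and 6.84 CPM on day 6, against 24.1, 24.8, 26.0, 27.5 and 27.7 CPM before differentiation. It fell by 2.01 and Actg1 by 1.94 on the log2 scale. Copies of Ppia (Gm10123, cyclophilin A), Tuba1b (Gm14150, alpha-tubulin) and Ywhaz (Gm4202, a 14-3-3 protein) fell by 1.19, 1.40 and 1.23. The 1 that rose was Gm3788, with log2 fold change 0.67, and its partner Tmsb10, which encodes a thymosin that binds actin monomers, was also the 1 gene of the list that rose (0.50).

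The glycolytic pseudogenes differed from each other. Gm4735, a copy of the enolase gene Eno1, had 141, 167, 107, 120 and 139 CPM on day 6, against 301, 323, 344, 336 and 315 CPM before differentiation, and was lower without overlap (log2 fold change -1.27, adjusted p = 5.81e-08), where Eno1 fell by 1.31. Gm13394, a copy of Gapdh, had 263, 311, 231, 243 and 241 CPM on day 6, against 259, 273, 291, 294 and 271 CPM before. Its libraries overlapped, with library 2 of day 6 the highest of all 10, and it did not pass (log2 fold change -0.11, adjusted p = 0.171). Gapdh, with 1942 ± 274 CPM on day 6 and 2206 ± 58.5 CPM before, fell by 0.18 (adjusted p = 0.0348), a call that some alternative settings lost, while the FPKM of the pseudogene was 18.9% of that of Gapdh on day 6 and 17.9% before. Of 3 pseudogenes with a partner on a list of translation genes, Gm6548 and Gm13456, copies of the elongation factor gene Eef1a1, fell by 0.39 and 0.63, and Tpt1-ps3, identical to part of the tumour-protein gene Tpt1, rose by 0.26 with Tpt1 (0.23). Gm2223, a copy of the initiation factor gene Eif2s3x, which that list does not hold, fell by 0.50.

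Of 7 pseudogenes of the mitochondrial genome, 4 were higher, 1 was lower and 2 were not called, and of the 12 mitochondrial genes tested 8 were higher and 0 lower. Of these, 6 are neighbours on chromosome 1 within bases 24611535 to 24616197, in one nuclear piece of mitochondrial DNA, and the seventh, Gm13340, lies elsewhere. Their counts were a very uneven share of those of their mitochondrial partners. RP23-8J15.3 had 57.4, 50.9, 45.7, 50.4 and 45.9 CPM on day 6, against 47.9, 41.5, 42.1, 39.8 and 42.3 CPM before (log2 fold change 0.23, adjusted p = 0.0067), and its partner mt-Atp6, which encodes a subunit of ATP synthase and is identical to it, had 22.9 ± 1.43 CPM on day 6 and 20.0 ± 1.79 CPM before. RP23-8J15.1 was at 0.695% and 0.714% of the FPKM of mt-Co1, a subunit of cytochrome c oxidase, on day 6 and before differentiation. Copies of mt-Co3 (RP23-8J15.4, 0.33) and mt-Nd4 (RP23-8J15.7, 0.64) rose with their partners (0.43 and 0.89), and the copy of mt-Co2 (RP23-8J15.2) did not pass (0.10; mt-Co2 0.17). All 3 are identical to their partners over their whole length.

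RP23-8J15.5 was the member of that piece that fell. It had 26.9, 18.9, 17.1, 16.5 and 18.5 CPM on day 6, against 36.1, 33.6, 32.5, 36.2 and 32.0 CPM before differentiation, without overlap (log2 fold change -0.79 ± 0.112, adjusted p = 5.27e-06). Its partner mt-Nd3, which encodes a subunit of complex I, had only 292 counts in all, 1.74 ± 0.266 CPM on day 6 and 1.53 ± 0.347 CPM before, and did not pass (log2 fold change 0.19). The log2 ratio of the pseudogene to mt-Nd3 was 0.95 lower on day 6 (exact permutation p = 0.00794). Counts at all listed genes of the mitochondrial chromosome, of any type, made up 2.96% ± 0.217 of a library on day 6 and 2.14% ± 0.244 before. The 7 pseudogenes made up 0.0185% ± 0.00185 and 0.0170% ± 0.00138.

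The largest fall was that of Gm6166, a copy of Fabp5, which encodes a fatty acid-binding protein. It had 1.29, 1.44, 0.975, 0.977 and 1.42 CPM on day 6, against 37.5, 36.4, 29.8, 27.8 and 37.3 CPM before differentiation, a log2 fold change of -4.78 ± 0.141 (adjusted p = 1.3e-15). Fabp5 had 4.30 ± 1.14 CPM on day 6 and 93.8 ± 4.46 CPM before, a log2 fold change of -4.43. Of the pseudogenes with no assigned partner, the largest falls on the log2 scale were in 2700099C18Rik (-2.65; 1.66 ± 0.401 CPM on day 6 and 10.5 ± 1.18 CPM before) and Gm14276 (-2.26; 1.42 ± 0.486 CPM and 6.81 ± 0.945 CPM). Ndc80, the closest coding gene to 2700099C18Rik, and Rps2, the closest to Gm14276, missed the limits on identity or cover.

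Increases were fewer: 7 pseudogenes had a log2 fold change of at least 1, and 30 one of -1 or lower. RP23-458B6.6, a duplicated pseudogene on chromosome 15 with Ly6i as the closest coding gene at 84.8% identity, had 247, 217, 94, 96 and 123 counts on day 6 and 0 in all 5 libraries before differentiation. With a floor of 3 counts over those 5 libraries it was at least 271-fold higher on day 6, and libraries 1 and 2 of day 6 had the most. Gm12439, which had no coding gene within the limits, rose to 32.9 ± 1.86 CPM on day 6, against 2.53 ± 0.341 CPM before, a log2 fold change of 3.70 ± 0.101 (adjusted p = 4.82e-16). Ppp4r1l-ps had 18.9, 19.9, 23.2, 21.9 and 23.9 CPM on day 6, against 10.4, 9.21, 10.8, 6.23 and 6.58 CPM before (log2 fold change 1.31). Tmem181b-ps rose by 0.93 and its nearest coding gene Tmem181a by 0.78.

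Both pseudogenes of Pisd, whose enzyme makes phosphatidylethanolamine in mitochondria, rose with it. Pisd-ps1 had 92.0, 86.0, 83.3, 79.5 and 95.7 CPM on day 6, against 33.1, 41.8, 36.1, 39.01 and 39.7 CPM before differentiation, a log2 fold change of 1.20 ± 0.0692 (adjusted p = 1.75e-11). Pisd-ps2 averaged 21.7 ± 2.21 CPM on day 6 and 10.4 ± 2.22 CPM before (log2 fold change 1.06), and Pisd itself 44.4 ± 1.57 and 19.7 ± 2.02 CPM (1.17). Pisd-ps1 is 94.15% identical to Pisd and shares no window of 100 bases with it, and its FPKM was 439% of that of Pisd on day 6 and 429% before.

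Some genes typed as pseudogenes in the deposited table are coding under the same gene ID in GENCODE M21, 3 of the 129 in all. One is Cebpd, the gene of a C/EBP transcription factor, which rose to 8.45 ± 1.48 CPM on day 6, against 2.72 ± 0.516 CPM before differentiation (log2 fold change 1.62, adjusted p = 7.09e-08). Another is Fer1l5, of the ferlin family of membrane proteins, with 9.35, 9.24, 10.1, 8.12 and 10.1 CPM on day 6, against 3.95, 6.25, 4.16, 6.23 and 4.50 CPM before (log2 fold change 0.91, adjusted p = 1.76e-05). The third is Gm7879, near Ppih in sequence, which fell. Leaving these 3 out gave 25 higher and 73 lower of 126. The gene IDs of a further 3 pseudogenes are not in M21.

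Across the 39 pairs with a named parent, 30 changed the same way (7 higher and 23 lower), 0 changed in opposite directions, in 6 only 1 member was called and in 3 neither. The difference between the conditions in the log2 ratio of pseudogene to parent had a median of 0.03 and a median absolute value of 0.11, with 33 pairs within 0.25 and 37 within 0.5. Adding the 70 pairs found by sequence gave 80 of 109 that changed the same way (16 higher and 64 lower), 3 that changed in opposite directions, 22 with 1 member called and 4 with neither. Of the 97 distinct partners, 21 were higher and 68 lower, and of the 129 pseudogenes 27 and 74. With most of both lower, unrelated genes would often change the same way too, and how often was not computed. Of the 109, 82 were within 0.25 and 104 within 1. These counts depend in part on the 0.5 added to each CPM, which matters where a pseudogene has few counts. Gm6166 and Fabp5 differed by 0.01 in this measure, with log2 fold changes of -4.78 and -4.43 in the edgeR fit. The ratios of 12 pairs did not overlap between the conditions, and for ratios no share over all genes exists to set beside that count. The 19 pairs identical over the whole pseudogene had a median absolute difference of 0.12, and the 15 pairs under 98% identity one of 0.15. A read that matches both members of a pair equally well is not uniquely mapped. How shared sequence bears on the counts of such pairs was not tested. In level, 24 of the 109 pseudogenes had a higher FPKM than their partner in both conditions and 42 had less than 10% of it in both. FPKM divides by gene length, and some of the 24 had fewer counts than their partner. Gm3650 had 11.4% to 22.1% of the counts of Spg11 in single libraries, but 190% of its FPKM on day 6 and 147% before.

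**Figure D4:**
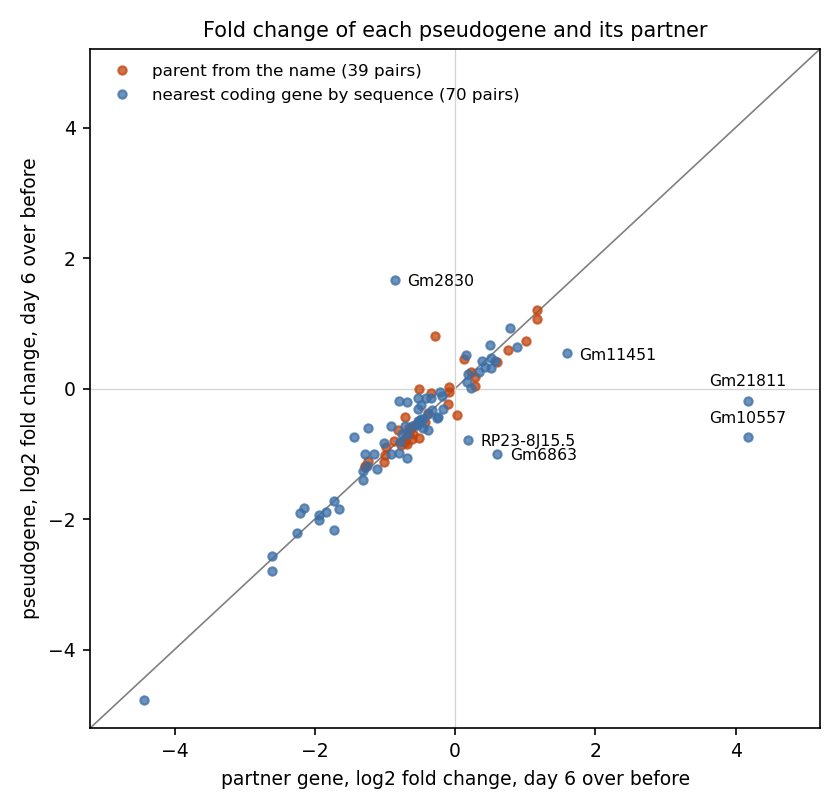
Log2 fold change, day 6 over before, of each pseudogene against that of its partner gene, for 39 pairs with a named parent and 70 pairs found by sequence. The grey diagonal marks equal change, and most pairs lie near it: 82 of the 109 were within 0.25 by their log2 ratio. Labelled are the 6 pairs found by sequence whose log2 ratio differed by at least 0.95 between the conditions.

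Between named pairs the differences described here were small. On the side of the pseudogene, the log2 ratio was higher on day 6 by 0.51 for Rpl38-ps2 and Rpl38, 0.34 for Gm1821 and the ubiquitin gene Ubb, 0.31 for Rpl10a-ps1 and Rpl10a, 0.29 for Itpa-ps1 and Itpa, and 0.22 for Rps2-ps13 and Rps2. On the other side it was lower by 0.42 for Mrpl48-ps and Mrpl48, which encodes a mitochondrial ribosomal protein, and by 0.24 for Cd63-ps and Cd63, 0.23 for Gm13443 and Glo1, 0.21 for Tcea1-ps1 and Tcea1, 0.20 for Mpc1-ps and Mpc1 and 0.19 for Gm9770 and Ctdsp2. All of these overlapped between the conditions. The exact permutation p was 0.0159 for Rpl38-ps2, Mrpl48-ps and Gm9770, and 0.0238 for Rpl10a-ps1 and Tcea1-ps1. For the others listed it was 0.0714 to 0.405. Without adjustment, 7 of the 39 named pairs and 25 of all 109 had an exact permutation p under 0.05, with no share over all genes to set beside them. The 0.5 added to each CPM shifts the ratio most for pseudogenes with few counts, and so affects this ranking. By the edgeR fit, Rps2-ps13 fell by 1.21 and Rps2 by 1.29 on the log2 scale. Mrpl48-ps had 5.79, 4.004, 3.29, 4.03 and 3.87 CPM on day 6, against 5.76, 5.76, 5.29, 5.02 and 6.10 CPM before, with library 1 of day 6 at the level of the cells before differentiation (log2 fold change -0.40, adjusted p = 0.0255), and Mrpl48 did not pass (0.03). Mpc1-ps had more counts than Mpc1, a subunit of the mitochondrial pyruvate carrier: 6.27 ± 0.574 CPM on day 6 and 3.80 ± 0.559 CPM before, against 4.22 ± 0.843 and 2.08 ± 0.346 CPM for Mpc1, and both rose (0.73 and 1.01).

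**Figure D5:**
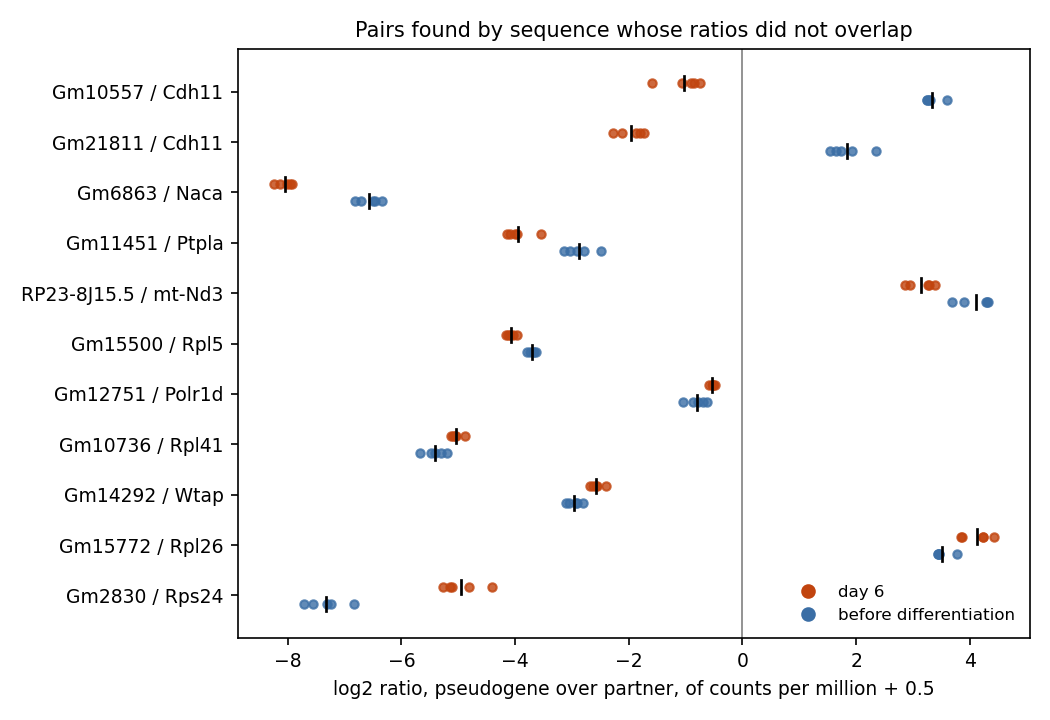
Log2 ratio of the CPM + 0.5 of a pseudogene to that of its partner in each library, for the 11 pairs found by sequence without overlap between the conditions. For each pair the upper points are the 5 libraries of day 6 and the lower points the 5 before differentiation, with a bar at the mean. The difference, day 6 minus before, ran from -4.37 for Gm10557 and Cdh11 to 2.39 for Gm2830 and Rps24.

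Of the pairs found by sequence, 3 had members called in opposite directions: Gm2830 with Rps24 (above), Gm10557 with Cdh11 and Gm6863 with Naca. Gm6863, a copy of the gene for the alpha subunit of the nascent polypeptide-associated complex, had 2.67, 3.52, 3.17, 2.81 and 2.65 CPM on day 6, against 7.35, 5.01, 6.10, 5.81 and 5.45 CPM before differentiation, and in log2 it fell by 1.00 ± 0.156 (adjusted p = 1.21e-05). Naca had 921 ± 63.8 CPM on day 6 and 608 ± 28.3 CPM before, and rose by 0.60 ± 0.0543 (adjusted p = 1.15e-08). Their log2 ratio was -8.06 ± 0.132 on day 6 and -6.57 ± 0.194 before. The counts of Naca are for the whole gene, with a gene length of 7034 bases, and its transcripts were not counted apart. The pseudogene matches 98.3% of its length to Naca at 99.84% identity, and 81.6% of its windows are shared.

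Gm10557 had 9.25, 6.89, 9.45, 9.40 and 9.43 CPM on day 6, against 16.1, 14.6, 14.03, 14.5 and 15.4 CPM before differentiation, a log2 fold change of -0.75 (adjusted p = 2.88e-06). Cdh11, the gene of the adhesion protein cadherin-11, rose to 18.7 ± 2.23 CPM on day 6, against 1.03 ± 0.114 CPM before (log2 fold change 4.17, adjusted p = 6.92e-15). Gm21811, which shares Cdh11 as its nearest gene, had 4.43 ± 0.572 CPM on day 6 and 5.03 ± 0.892 CPM before and did not pass (log2 fold change -0.19). Both are less close to their partner than most, at 96.27% and 95.70% identity, with no window in common.

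A smaller difference was seen for Gm11451 and the gene listed as Ptpla, whose product takes part in fatty acid elongation. Gm11451 had 5.94, 5.45, 4.02, 4.40 and 5.68 CPM on day 6, against 2.96, 3.39, 4.16, 3.27 and 3.73 CPM before, and rose by 0.54, with library 3 of day 6 below 1 library before differentiation. Ptpla rose to 86.4 ± 14.95 CPM on day 6, against 28.7 ± 2.08 CPM before, by 1.59, so that their ratio was lower on day 6 by 1.08. The remaining pairs without overlap, Gm10736 with Rpl41, Gm12751 with Polr1d and Gm14292 with Wtap, had ratios higher on day 6 by 0.38, 0.27 and 0.39. Gm12751 is identical to its partner over its whole length, and neither it nor Gm14292 passed the test alone (adjusted p = 0.0957 and 0.251).

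The pairs with no large difference included abundant ones of other roles. Gm6969, a copy of Cox7a2l, which encodes an assembly factor of respiratory supercomplexes, rose by 0.42 (Cox7a2l 0.57), with 64.7 ± 3.599 CPM on day 6 and 48.4 ± 4.26 CPM before differentiation. Gm15487, a copy of Atp6v0c, a subunit of the vacuolar proton pump that acidifies lysosomes, had 49.1, 60.4, 59.5, 54.1 and 50.7 CPM on day 6, against 40.7, 49.2, 47.4, 47.1 and 59.5 CPM before, which overlapped, and did not pass (log2 fold change 0.17, adjusted p = 0.0941). Atp6v0c rose by 0.28 (adjusted p = 0.000527), and the FPKM of its pseudogene was 605% of its own on day 6 and 655% before. In counts, without division by gene length, the pseudogene had 96.1% to 134% of Atp6v0c in single libraries. Gm3608, a copy of the capping protein gene Capza1, fell by 0.70 and Capza1 by 0.68.

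Other genes lie over some of these pseudogenes: 15 of the 129 overlap a gene on the same strand and a further 29 one on the opposite strand only. What such genes add to the counts was not tested. Of the 15, 7 fell, 1 rose and 7 did not pass. Gm12346, a copy of the chaperone gene Hsp90aa1 inside Ssh2, fell by 1.89 (Hsp90aa1 1.84), whereas Ssh2 rose by 0.66. Gm5898, a copy of Thrap3 inside Otud7a, fell by 0.61 (Thrap3 by 0.46), whereas Otud7a was higher on day 6, at 9.86 CPM against 0.0435 CPM before. C920009B18Rik, which has no assigned partner, fell by 0.91 together with Raet1e (by 1.32). Gm8615, a copy of Gnpda1 that overlaps Hmgb1, rose by 0.42 (Gnpda1 by 0.38), whereas Hmgb1 fell by 1.72. Without the 15, there were 26 higher and 67 lower of 114.

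The summed count of 500 divides the pseudogenes at a point without any gap. Just above it were Amd-ps4 (516 counts), Itpa-ps1 (514), Gm2223 (511), Gm12854 (507) and Slc2a4rg-ps (502), with means of 1.90 to 2.82 CPM on day 6 and 2.94 to 3.82 CPM before differentiation. Just below it were Gm7332 (493 counts), Gm9531 (492), Gm17383 (490), Gm14284 (480) and Gm8355 (475), with means of 1.04 to 1.52 CPM on day 6 and 3.79 to 4.41 CPM before. At such levels a library held 6 to 103 counts of a pseudogene, which limits the precision of any single value.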

How the data were processed

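RNA was sequenced from 5 libraries of C2C12 cells on day 6 and 5 before differentiation (the day comes from the study's text, since the labels give the stage only). According to the authors, reads were trimmed (Trimmomatic), aligned to mm10 with STAR 2.5 and counted per gene with HTSeq 0.6.1 from uniquely mapped reads, and these raw counts were deposited. The deposited FPKM values are the same counts per 1000 bases of gene length and per 1000000 counts of the library, and were used only to compare levels between genes. Reads that match a pseudogene and its parent equally well are not uniquely mapped. The strand and overlap settings and the annotation release are not given in the sources used here, and the study and the labels name different library kits.

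Counts were tested with edgeR 4.0.16 (R 4.3.3, filterByExpr, TMM factors, robust quasi-likelihood test) over all 13085 genes that passed the filter, with Benjamini-Hochberg adjustment and a threshold of 0.05. All fold changes are log2, day 6 over before, and the script was tested on simulated data. The log2 ratio of a pair used CPM + 0.5 and an exact two-sided permutation test over libraries, unadjusted. Partners came from names or from BLAST 2.17.0 against the set of GENCODE M21 coding transcripts described above. Scripts ran in Python 3.11.15. Symbols that had turned into dates (27) were restored by gene ID.

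Named are the 15 pseudogenes with most counts, the 8 largest increases and 8 largest decreases among those called without overlap, pairs called in opposite directions, the 6 largest pair differences in each direction among named parents, and the 5 pseudogenes on either side of the minimum. One pair that these rules select is not reported here, though counts of pairs include it. Others were chosen after their values were seen. The members, lists and rules were all chosen with earlier results of these data known. Alternatives covered DESeq2 1.42.0, other scaling and filters, the replicate number as a block, other count minimums and the omission of libraries.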

Additional observations from a re-analysis of the deposited data

Results flagged for a closer look

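Among 106 groups of 5 libraries looked at for a library far from the other four, 4 had one by Dixon's criterion, and chance alone gives about 1 in 20. All lay on day 6. Gm10557 had 6.887 CPM in library 2 and 9.249 to 9.448 CPM in the other four. Rpl10a-ps1 had 3.759 CPM in library 1, the others 5.358 to 5.973 CPM. Rpl38-ps2 had 4.45 CPM in library 3, the others 2.711 to 3.174 CPM. Gm14284, a pseudogene just below the count minimum, had 0.3873 CPM in library 5, the others 1.236 to 1.343 CPM.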

How the results depend on the processing

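No fold change of a named gene that passed in the main or the alternative fit changed direction. Nor did any pair difference looked at whose ratios did not overlap between the conditions. The other pair differences were not checked for a change of sign. Of 1619 alternative values for 96 named fold changes, 1571 stayed on the same side of the threshold, 40 lost the call and 8 gained it, in 11 genes near the threshold (Gapdh, Gm12751, Gm13394, Gm13443, Gm15487, Gm1821, Gm2223, Mrpl48-ps, Rps3a2, Ubb and mt-Atp6). The median log2 fold change of the pseudogenes was -0.61 with a minimum of 1000 summed counts and -0.56 with a minimum of 250. It ran from -0.52 to -0.43 when single libraries were left out, with -0.43 without library 2 of day 6, while higher pseudogenes numbered 25 to 29 and lower ones 71 to 76. Adding partners found by sequence gave 80 pairs that changed the same way and 3 in opposite directions, which follows from the 70 pairs added. Without day 6 libraries 1 and 2, 1 named pair was called in opposite directions. With the replicate number as a block there were 27 higher and 74 lower pseudogenes and a median of -0.49, with 29 pairs changed the same way, 0 in opposite directions and a median pair difference of 0.01. That median is over differences of edgeR log2 fold changes, whereas the main value of 0.03 is over log2 ratios of CPM + 0.5. Same-numbered libraries did not deviate together (correlations -0.0572 to 0.0215). These correlations show no sign of pairing by number, but cannot tell whether the cultures were paired, which the sources used here do not state. DESeq2 tested 21797 genes, with an all-gene median log2 fold change of 0.09 against 0.01. Pseudogenes with few counts limit the precision: 47 of 129 had fewer than 1000 counts over 10 libraries.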
